A study of Arabidopsis thaliana with 9 samples.

Results

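Pre-rRNA processing and ribosome assembly factors were followed by RNA-seq in Arabidopsis seedlings, as 48 genes of 33278 loci in an expression table. The genes were chosen by locus identifier, for their known place in the small-subunit processome, pre-60S assembly, the nuclear exosome or subunit export. The choice was made with earlier results of these data known, so counts over the genes are a description. Core proteins of snoRNPs (the particles of small nucleolar RNAs that modify rRNA) and nucleolins are not among them. The study asks what the plant histone deacetylase HD2C does, and the expression comparison sets an hd2b hd2c double mutant against wild type Columbia-0. There were 2 libraries per genotype, from seedlings of 6 days grown on soil under continuous light. The labels give neither the alleles nor whether libraries of a genotype stem from plants grown apart, and the spread behind each p-value is therefore that among these samples, possibly technical in origin. The 5 leaf samples of the series, made by immunoprecipitation of chromatin or RNA, are not analysed here.

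In plants, as in yeast, RNA polymerase I makes a long pre-rRNA in the nucleolus that holds the rRNAs of both ribosomal subunits. The processome, a large particle built around the U3 snoRNA, folds the 18S part and has it cut free for the 40S subunit. Other factors build the pre-60S particle around the 25S and 5.8S rRNAs, exonucleases trim or destroy the spacers, and export factors carry both particles to the cytoplasm, where the last factors leave. HD2 proteins are plant-specific histone deacetylases found largely in the nucleolus. By role, 20 of the 48 genes act on the 40S subunit, 23 act on the 60S subunit, and 5 act in RNA decay or on both. The reference names 32 of them. The other 16 are given by locus identifier alone and were placed in a subunit group from general knowledge of the pathway, so values without them are given as well.

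Values are FPKM, fragments scaled to transcript length and library size, so levels can be compared between genes but hold no fragment counts. Column sums were 988524 and 992451 FPKM for wild type, against 956002 and 1105980 FPKM for the libraries labelled hd2b hd2c. HD2B stood at 138 and 191 FPKM (wild type) against 24.2 and 24.3 FPKM (hd2b hd2c), 6.76-fold lower (limma adjusted p = 3.62e-04). HD2C stood at 56.1 and 63.9 FPKM against 74.7 and 55.8 FPKM and was not lower, and the genotype is used below as labelled. With no insertion site in the labels, an FPKM over the locus cannot tell an intact HD2C transcript from a broken one.

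Transcripts of these factors were modestly higher in the libraries labelled hd2b hd2c, and no single gene passed the test. Of the 48 genes 47 passed the filter on low values, and 44 of the 47 lay above 0 on the log2(FPKM + 1) scale. Their median log2 change was 0.28, with quartiles of 0.13 and 0.39. Over all 19917 tested loci 50.7% lay above 0 and the median was 0.00. In the 40S group 19 of 19 tested genes lay above 0 and in the 60S group 21 of 23, with a median of 0.32 in each. The 5 genes of RNA decay and general function had a median of 0.05.

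Limma called none of the 47 genes higher or lower at an adjusted p of 0.05. The same test called 0.608% of all tested loci higher and 0.552% lower. At an unadjusted p of 0.05, 21 of the 47 were higher and 0 lower, against 9.22% and 7.95% of all loci. Limma without its trend and robust options also called none. Columns scaled to the same sum called 3 genes higher (SWA1, AT1G52930 and eIF6A), where 1.61% of tested loci were called higher. A rescaling without rRNA loci and AT2G01021 called the same 3, where 1.43% of loci were called higher. A block on the library number called 5 higher (SWA1, IMP4, AT5G22100, AT1G52930 and eIF6A), where 1.31% of loci were. The labels do not state that this number marks a shared batch. Both hd2b hd2c libraries lay above both wild-type libraries for 31 genes, where 24.2% of all tested loci did so, and below both for 1 gene, where 25.1% did. With 2 libraries against 2, an exact permutation test of a single gene cannot give a p below 0.333. Over the 31 tested genes that the reference names, 28 lay above 0 with a median of 0.32, the 40S group having 0.35 and the 60S group 0.28.

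**Figure D1:**
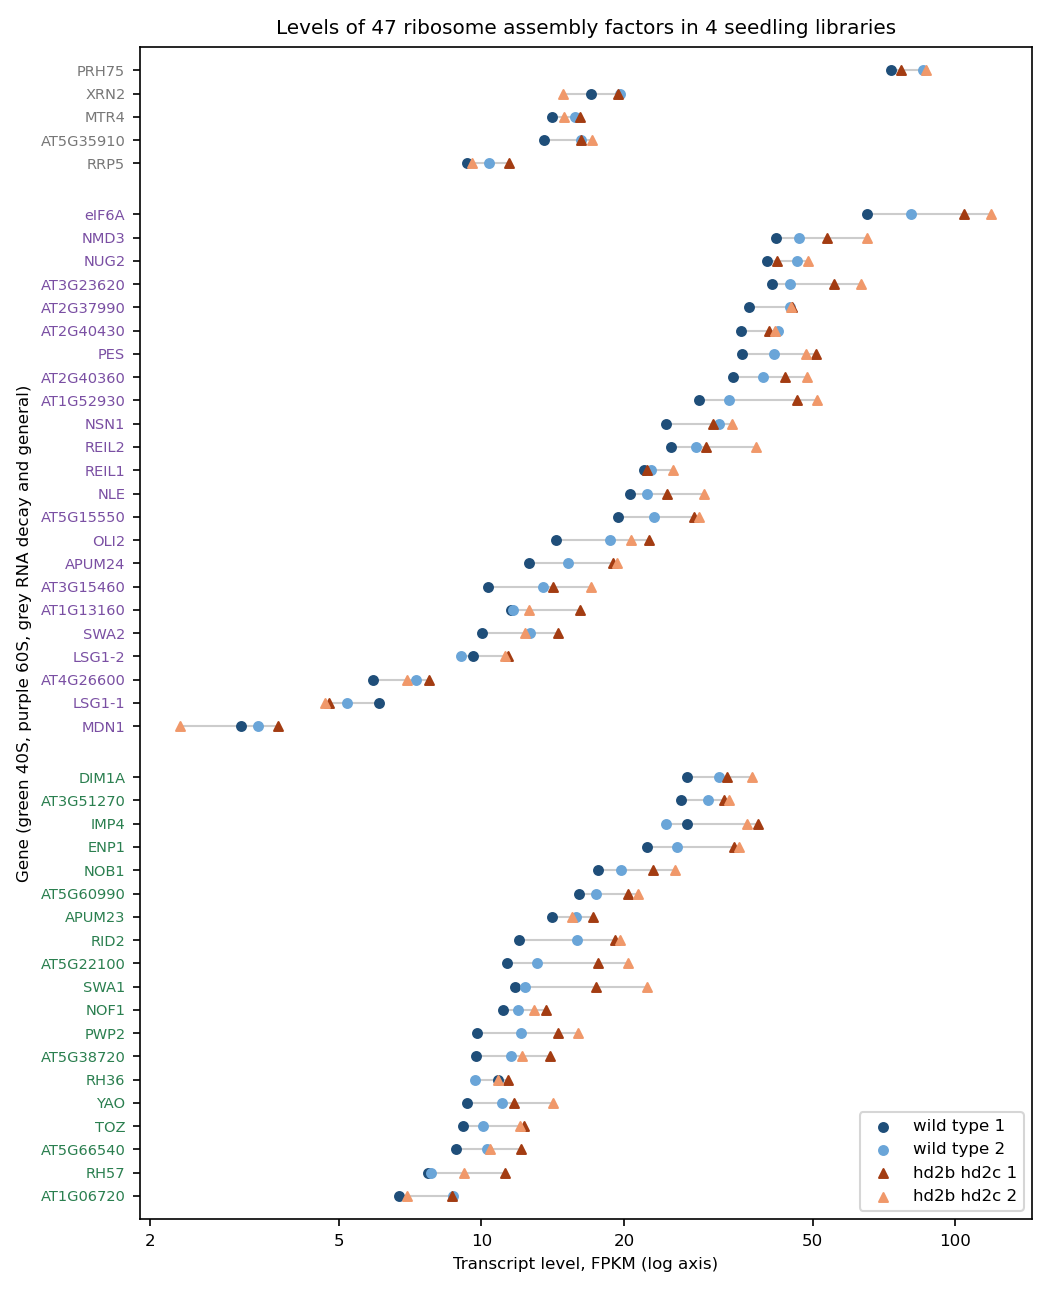
Transcript level in FPKM on a log axis (x) of the 47 tested genes (y), each with its 2 wild-type libraries (circles) and 2 hd2b hd2c libraries (triangles), ordered by wild-type level within the 40S, 60S and RNA decay or general groups. In 31 genes both triangles lie to the right of both circles, and in LSG1-1 both lie to the left.

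In wild type the factors covered a wide range of levels per transcript length. The highest was PRH75, a nucleolar DEAD-box RNA helicase, with 79.4 ± 8.87 FPKM (SD, n = 2), followed by eIF6A, which keeps new 60S subunits from joining 40S subunits too early, with 72.9 ± 11.1 FPKM. The spread of these neighbours overlapped. A group of 60S factors came next within a narrow band, among them NMD3 at 44.3 ± 3.47 FPKM, NUG2 at 43.2 ± 4.34 and PES at 38.5 ± 4.24, which cannot be ordered beyond their spread. At the low end stood LSG1-1 at 5.64 ± 0.627 FPKM and MDN1, the very long gene of the ATPase midasin, at 3.23 ± 0.188 FPKM. EMB2271 was listed at 0 in all 4 libraries, so no fold is given for it. The table holds other exact zeros that may be failed estimates, and a 0 here does not show that the gene is silent.

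Among the processome genes, SWA1 had the largest change of all 47. SWA1 encodes a nucleolar WD40 protein, related to yeast Utp15, that is needed for 18S rRNA processing and for the divisions of the female gametophyte. It stood at 11.7 and 12.4 FPKM (wild type) against 17.4 and 22.4 FPKM (hd2b hd2c), 1.65-fold higher (log2 0.67, SE 0.14, limma adjusted p = 0.0806). The groups did not overlap, and the hd2b hd2c libraries differed more from each other than the wild-type libraries did. IMP4, which belongs with the U3 snoRNA to the core of the processome, stood at 27.1 and 24.5 FPKM and 38.4 and 36.4 FPKM, 1.45-fold higher (log2 0.52, SE 0.12, limma adjusted p = 0.0991). AT5G22100 stood at 11.3 and 13.1 FPKM and 17.6 and 20.4 FPKM, 1.56-fold higher (log2 0.60, SE 0.13, limma adjusted p = 0.0917). In these genes too every hd2b hd2c library lay above every wild-type library. PWP2 and TOZ, WD40 proteins of the same processome subcomplex in yeast, had smaller changes. PWP2 stood at 9.77 and 12.1 FPKM against 14.5 and 15.95, and TOZ, which is needed for early embryo divisions, at 9.13 and 10.1 FPKM against 12.3 and 12.1. YAO, a WD40 protein linked to U3, stood at 9.31 and 11.04 FPKM against 11.7 and 14.1, 1.27-fold higher with adjusted p = 0.317 in limma. In none of PWP2, TOZ and YAO did the groups overlap, with hd2b hd2c higher as in 24.2% of all tested loci.

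The other processome genes had log2 changes between 0.02 and 0.27. AT5G38720 stood at 9.74 and 11.6 FPKM against 13.9 and 12.2 (log2 0.27, SE 0.14, limma adjusted p = 0.357), and AT5G66540 at 8.83 and 10.3 FPKM against 12.1 and 10.4 (log2 0.22, SE 0.14, limma adjusted p = 0.469). In both loci every hd2b hd2c library lay above every wild-type library, as in 24.2% of all tested loci. APUM23, a pumilio-type RNA-binding protein of the nucleolus, stood at 14.1 and 15.8 FPKM (wild type) against 17.2 and 15.5 FPKM (hd2b hd2c) (log2 0.12, SE 0.12, limma adjusted p = 0.674). Its groups overlapped, since the second hd2b hd2c library lay below the second wild-type library. AT1G06720 stood at 6.70 and 8.70 FPKM against 8.66 and 6.97, with a log2 change of 0.02, the smallest of the 40S genes. Its sign differed between the libraries numbered 1 and those numbered 2. NOF1, a nucleolar factor related to yeast Utp25, stood at 11.1 and 11.96 FPKM against 13.7 and 12.9 and did not overlap, but its log2 change was only 0.19.

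Of the DEAD-box helicases that unwind pre-rRNA for 18S maturation, RH57 stood at 7.71 and 7.81 FPKM (wild type) against 11.2 and 9.18 FPKM (hd2b hd2c) (log2 0.35, SE 0.14, limma adjusted p = 0.263). The wild-type values nearly coincided and both hd2b hd2c values lay above them. AT5G60990 stood at 16.1 and 17.4 FPKM against 20.4 and 21.4 (log2 0.30), without overlap. RH36, also called SWA3, stood at 10.8 and 9.67 FPKM against 11.4 and 10.8, and its groups overlapped (log2 0.10, adjusted p = 0.725 in limma).

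Genes of the later 40S steps were each higher in both hd2b hd2c libraries, as were 24.2% of all tested loci. ENP1, which stays with the pre-40S particle until its export, stood at 22.4 and 25.9 FPKM (wild type) against 34.1 and 34.9 FPKM (hd2b hd2c), 1.43-fold higher (log2 0.50, SE 0.12, limma adjusted p = 0.116). NOB1, the endonuclease that makes the last cut at the end of 18S rRNA, stood at 17.6 and 19.7 FPKM against 23.05 and 25.6 (log2 0.37, SE 0.12, limma adjusted p = 0.198). The rRNA methyltransferase gene RID2, known in Arabidopsis from root initiation mutants, stood at 11.99 and 15.9 FPKM against 19.1 and 19.7 (log2 0.46, SE 0.15, limma adjusted p = 0.182). In RID2 the wild-type libraries lay far apart and the hd2b hd2c libraries close together. AT3G51270 stood at 26.4 and 30.03 FPKM against 32.5 and 33.3 (log2 0.22). DIM1A, which dimethylates adenosines of 18S rRNA, stood at 27.2 and 31.7 FPKM against 32.9 and 37.3, its second wild-type library just under its first hd2b hd2c library (log2 0.25, SE 0.13, limma adjusted p = 0.382).

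**Figure D2:**
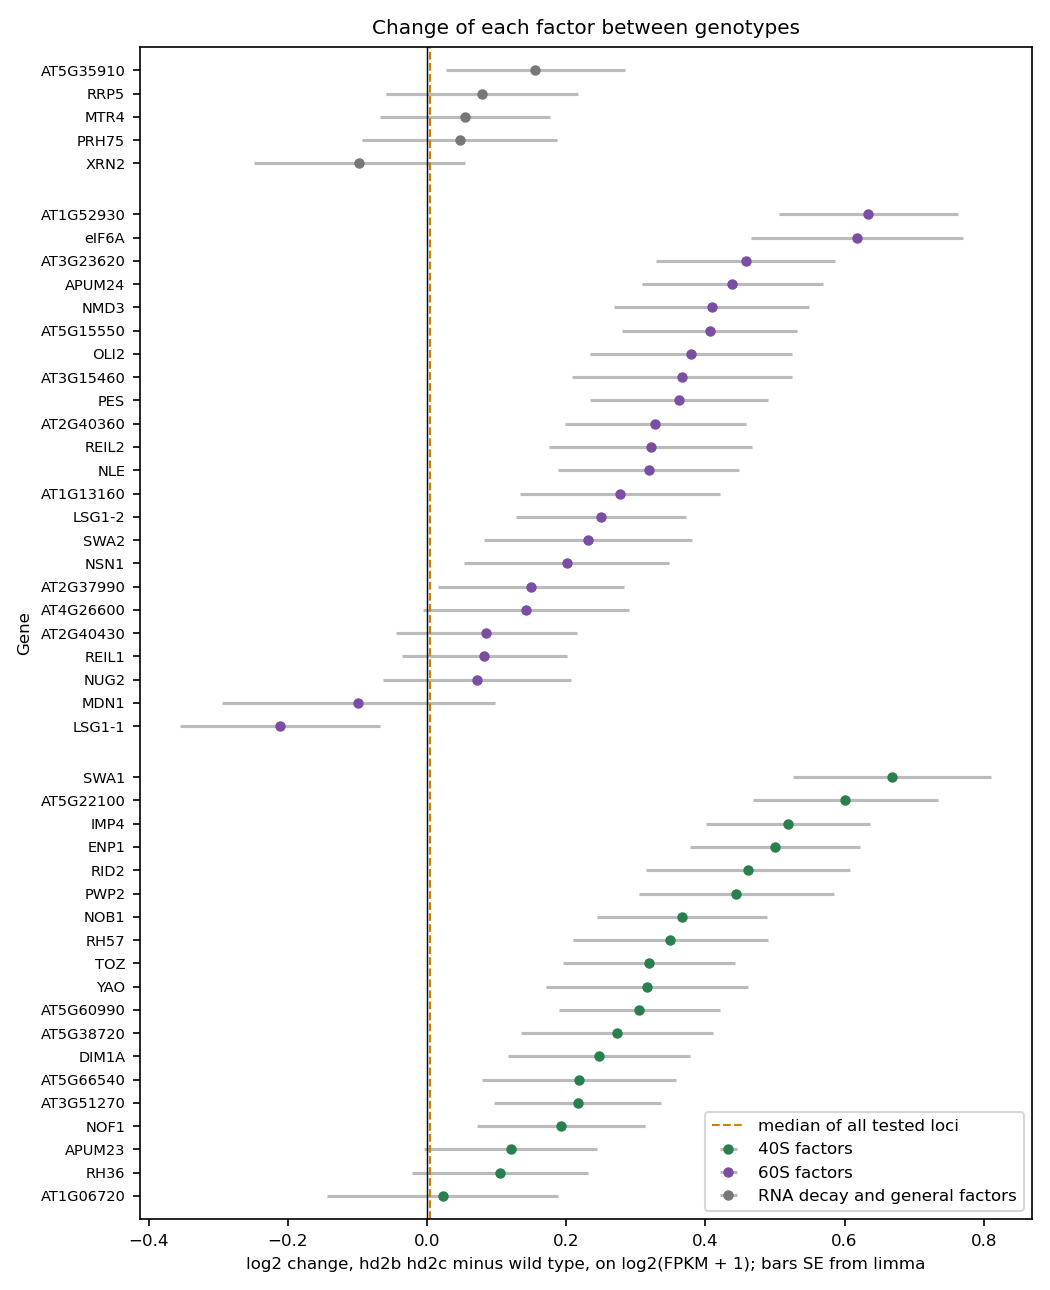
Log2 change of each of the 47 genes, hd2b hd2c minus wild type from log2(FPKM + 1) values (x), with bars of 1 SE from limma, by gene (y) and coloured by group; the dashed line is the median of all tested loci. All 19 genes of the 40S group and 21 of 23 of the 60S group lie right of 0, and the 5 genes of RNA decay and general function lie between −0.10 and 0.16.

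On the 60S side the smallest p belonged to AT1G52930. It stood at 28.7 and 33.3 FPKM (wild type) against 46.3 and 50.99 FPKM (hd2b hd2c), 1.57-fold higher (log2 0.63, SE 0.13, limma adjusted p = 0.0701). eIF6A stood at 65.1 and 80.7 FPKM against 105 and 119 FPKM, 1.54-fold higher (log2 0.62, SE 0.15, limma adjusted p = 0.117). AT3G23620 stood at 41.1 and 44.7 FPKM against 55.4 and 63.3 (log2 0.46, SE 0.13, limma adjusted p = 0.146). None of these 3 genes had overlapping groups, and each was higher in hd2b hd2c, as were 24.2% of all tested loci. With every column scaled to the same FPKM sum, SWA1, AT1G52930 and eIF6A passed the threshold, with adjusted p of 0.0343, 0.0250 and 0.0244 from limma.

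The early pre-60S factors lay mostly above wild type. PES, the Pescadillo protein that works in a trimeric complex on 25S and 5.8S maturation, stood at 35.5 and 41.5 FPKM (wild type) against 50.96 and 48.4 FPKM (hd2b hd2c) (log2 0.36, SE 0.13, limma adjusted p = 0.214). APUM24, a pumilio-type protein that acts on the spacer between 5.8S and 25S rRNA, stood at 12.6 and 15.3 FPKM against 18.97 and 19.3 (log2 0.44, SE 0.13, limma adjusted p = 0.161). OLI2, a relative of the yeast rRNA methyltransferase Nop2, stood at 14.4 and 18.7 FPKM against 22.6 and 20.6 (log2 0.38, SE 0.14, limma adjusted p = 0.245). AT5G15550 stood at 19.4 and 23.1 FPKM against 28.1 and 28.8 and AT2G40360 at 33.97 and 39.3 FPKM against 43.8 and 48.6. None of these 5 genes had overlap between genotypes, and each was higher in hd2b hd2c, as were 24.2% of all tested loci. In OLI2 the wild-type libraries lay far apart. AT4G26600 overlapped, at 5.92 and 7.28 FPKM against 7.76 and 6.96, and the ratio of OLI2 to it was 2.43 and 2.56 in wild type against 2.92 and 2.97. AT3G15460 stood at 10.3 and 13.5 FPKM against 14.2 and 17.03, and the ratio of AT1G52930 to it was 2.78 and 2.47 against 3.27 and 2.99. Each ratio had an exact permutation p of 0.333. AT2G37990 stood at 36.7 and 44.9 FPKM against 45.3 and 44.95, the second wild-type library just under both hd2b hd2c libraries. AT2G40430 overlapped, at 35.2 and 42.3 FPKM against 40.4 and 41.6 (log2 0.09). SWA2, related to the yeast pre-60S factor Noc1, overlapped, at 10.04 and 12.6 FPKM against 14.5 and 12.4.

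The nuclear GTPases and the remodelling ATPase had overlapping groups, as did 10082 of the 19917 tested loci. NUG2 stood at 40.2 and 46.3 FPKM (wild type) against 42.1 and 48.8 FPKM (hd2b hd2c), the smallest absolute change of the 60S group (log2 0.07, SE 0.13, limma adjusted p = 0.838). NSN1, a nucleostemin-like GTPase, stood at 24.5 and 31.8 FPKM against 30.8 and 33.7 (log2 0.20, SE 0.15, limma adjusted p = 0.532). In these GTPase genes the wild-type libraries differed by more than the genotypes. MDN1, which pulls assembly factors off the pre-60S particle, stood at 3.10 and 3.37 FPKM against 3.71 and 2.31 (log2 −0.10, SE 0.20, limma adjusted p = 0.847). The first hd2b hd2c library was the highest of the 4 and the second the lowest, and after removal of the trend on gene span the change turned to 0.33 (limma adjusted p = 0.287). NLE (Notchless), a protein that midasin acts on, differed from MDN1 in that both hd2b hd2c libraries lay above wild type. It stood at 20.6 and 22.4 FPKM against 24.7 and 29.5 (log2 0.32, SE 0.13, limma adjusted p = 0.268).

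Export and cytoplasmic factors ranged from a log2 change of −0.21 in LSG1-1 to 0.62 in eIF6A. NMD3, the adaptor that takes the pre-60S particle through the nuclear pore, stood at 41.8 and 46.8 FPKM (wild type) against 53.6 and 65.01 FPKM (hd2b hd2c) (log2 0.41, SE 0.14, limma adjusted p = 0.205), and AT1G13160 at 11.6 and 11.6 FPKM against 16.2 and 12.6. LSG1-1 and LSG1-2 are copies of the GTPase that releases NMD3 in the cytoplasm, and they differed in direction. LSG1-2 stood at 9.62 and 9.04 FPKM against 11.4 and 11.2 (log2 0.25, SE 0.12, limma adjusted p = 0.345), and LSG1-1 at 6.09 and 5.20 FPKM against 4.77 and 4.68 (log2 −0.21, SE 0.14, limma adjusted p = 0.499). LSG1-1 was the 1 gene with both hd2b hd2c libraries below both wild-type libraries. The ratio of LSG1-2 to LSG1-1 was 1.58 and 1.74 in wild type and 2.38 and 2.39 in hd2b hd2c, which gives the smallest two-sided exact permutation p that 2 against 2 allows, 0.333. REIL1 and REIL2 are related to yeast Rei1, which recycles export factors in the cytoplasm, and REIL2 is known for growth in the cold. REIL2 stood at 25.2 and 28.4 FPKM against 29.8 and 37.9 (log2 0.32, SE 0.15, limma adjusted p = 0.310), without overlap. REIL1 stood at 22.02 and 22.8 FPKM against 22.4 and 25.3 (log2 0.08, SE 0.12, limma adjusted p = 0.776), with overlap. The ratio of REIL2 to REIL1 was 1.14 and 1.24 in wild type and 1.33 and 1.497 in hd2b hd2c, with the same exact p of 0.333. How reads shared by such copies were counted is not given in the sources used here, so the single copies are uncertain.

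All 5 genes of RNA decay and general function had overlapping groups, as did 10082 of the 19917 tested loci. MTR4, the helicase that feeds pre-rRNA spacers to the nuclear exosome, stood at 14.1 and 15.8 FPKM (wild type) against 16.1 and 14.9 FPKM (hd2b hd2c) (log2 0.05, SE 0.12, limma adjusted p = 0.871). XRN2, an exonuclease that trims pre-rRNA from its start, stood at 17.03 and 19.6 FPKM against 19.5 and 14.9 (log2 −0.10, SE 0.15, limma adjusted p = 0.794). Its second hd2b hd2c library was the lowest of the 4. RRP5, which acts in the processing of both subunits, stood at 9.33 and 10.4 FPKM against 11.4 and 9.55 (log2 0.08, SE 0.14, limma adjusted p = 0.821). PRH75 stood at 73.1 and 85.6 FPKM against 77.1 and 86.7 (log2 0.05, SE 0.14, limma adjusted p = 0.908), and AT5G35910 at 13.6 and 16.2 FPKM against 16.2 and 17.1 (log2 0.16, SE 0.13, limma adjusted p = 0.586). All 5 were lower in the first wild-type library than in the first hd2b hd2c library, and 2 of 5 were higher in the second hd2b hd2c library than in the second wild-type library.

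The wild-type libraries differed from each other in these factors. The first wild-type library was the lowest of the 4 for 41 of the 47 genes (87.2%), against 32.3% of all tested loci. The second wild-type library exceeded the first for 43 of 47 genes (91.5%, against 64.2% of all loci), with a median log2 difference of 0.20 (0.07 over all loci). Between the hd2b hd2c libraries the median difference was 0.03, and 26 of 47 genes were higher in the second. The FPKM of the 48 genes summed to 949.9 and 1092 in wild type and to 1235 and 1308 in hd2b hd2c. Between libraries numbered 1 the median change was 0.34 with 46 of 47 genes above 0, and between those numbered 2 it was 0.21 with 37 of 47 above 0. Without the first wild-type library, 39 of 47 genes lay above 0 with a median of 0.20, while the median of all loci was −0.03. Without the second wild-type library, 45 of 47 lay above 0 with a median of 0.38, while the median of all loci was 0.03. The 5 genes of RNA decay and general function had a median of −0.02 without the first wild-type library and of 0.15 without the second.

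**Figure D3:**
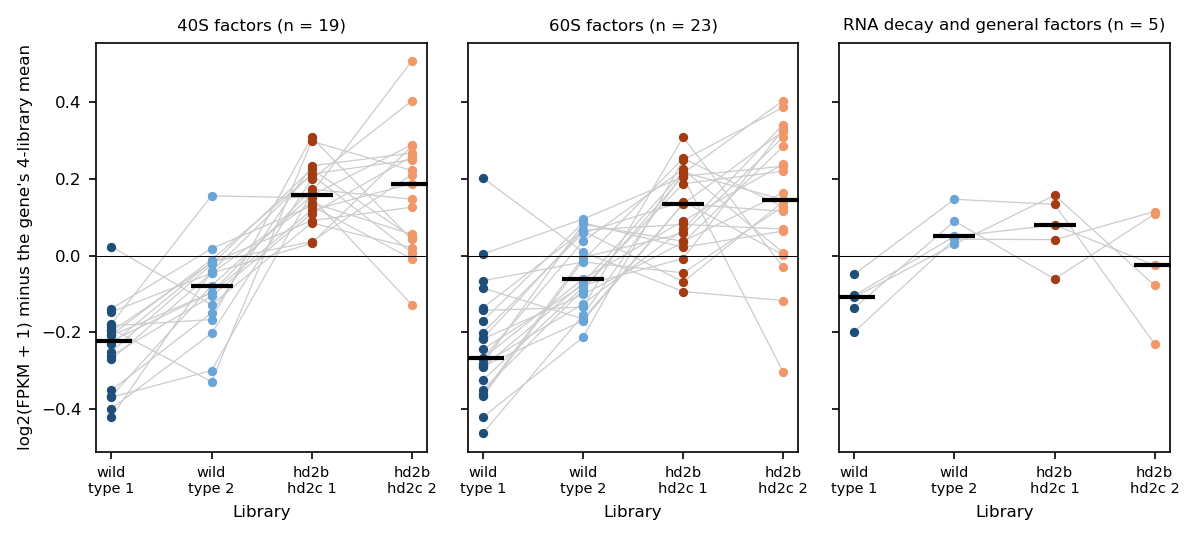
Level of each gene in each library as log2(FPKM + 1) minus the mean of that gene over the 4 libraries (y), by library (x), for the 40S group (n = 19), the 60S group (n = 23) and the RNA decay and general group (n = 5); grey lines join a gene and black bars are medians. The first wild-type library is the lowest for 41 of the 47 genes.

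Longer genes among the factors had smaller changes. Across the 47 genes, Spearman's rho between log2 change and gene span was −0.54, and −0.49 without the 2 genes of longest span; the genes share the same 4 libraries, so this is a description. All tested loci had the same trend with a rho of −0.35: the median log2 change was 0.15 in the 10% of loci with the shortest spans and −0.17 in the 10% with the longest. The median span of these factors was 3178 bp, where that of all tested loci was 2356 bp, and 10 of the 47 lay among the longest 10%. Among the longest were MDN1 with 26211 bp, RRP5 with 13013 bp and XRN2 with 7481 bp. The 10 genes over 5000 bp, a limit chosen after the values were seen, had a median change of 0.10, and the other 37 had a median of 0.32.

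Once the span trend was taken out of each library, the median change of the 47 genes was 0.33 and 46 lay above 0. The 10 genes over 5000 bp then had a median of 0.32, and the other 37 had 0.35. MDN1 moved from −0.10 to 0.33, RRP5 from 0.08 to 0.39 and XRN2 from −0.10 to 0.11. The RNA decay and general group moved from a median of 0.05 to 0.21, against 0.35 in each of the 40S and 60S groups. LSG1-1 was the 1 gene still below 0. No gene was called at an adjusted p of 0.05 in this form either, where limma called 62 of all loci higher and 80 lower. The median of the RNA decay and general group thus changed with how length was treated but stayed below those of the subunit groups. The cause of the trend was not tested.

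**Figure D4:**
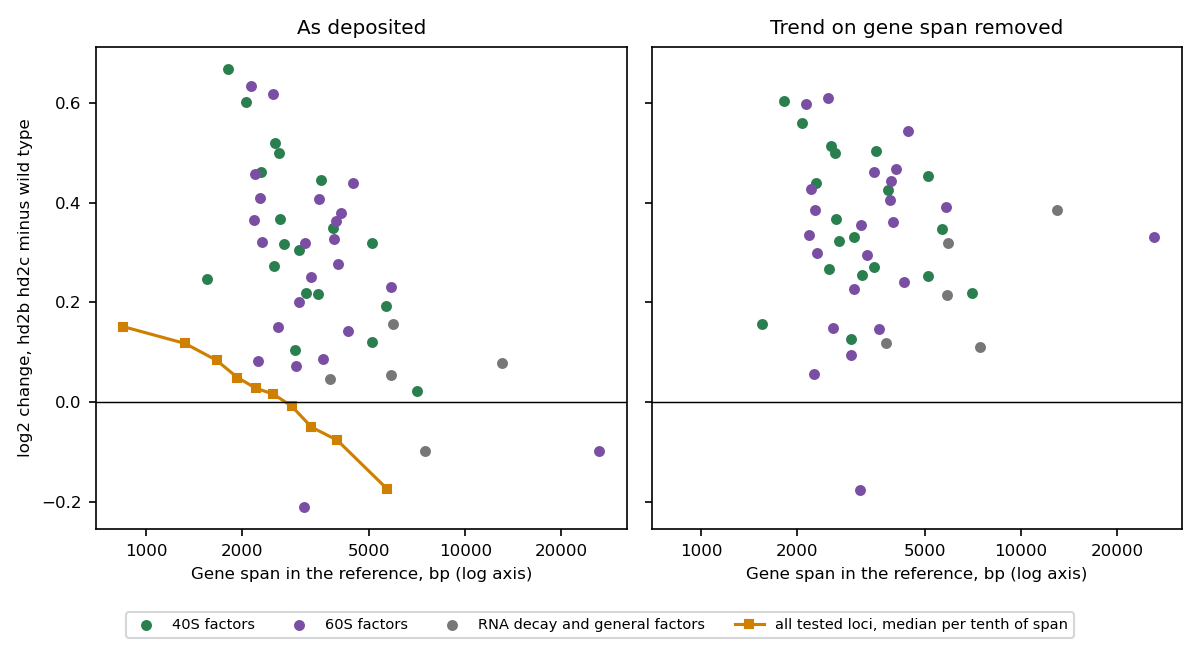
Log2 change, hd2b hd2c minus wild type (y), against gene span in the reference in bp on a log axis (x), for the 47 genes as deposited (left) and after removal of the span trend (right); the orange squares are medians of all tested loci in 10 bins of span. As deposited the 10 genes over 5000 bp have a median of 0.10 and the other 37 of 0.32, and after removal of the trend 0.32 and 0.35.

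Other factors of both subunits also lay above 0. Of 17 further 40S factors, 17 lay above 0 (median 0.29), and none was called, while 7 had an unadjusted p under 0.05 in limma. Of all tested loci, 50.7% lay above 0 and 9.22% were higher at that unadjusted p. These further factors were also listed with earlier results of these data known. The smallest p among them belonged to AT5G14050, at 17.8 and 19.8 FPKM (wild type) against 23.6 and 30.5 FPKM (hd2b hd2c), and to EDA14, also named UTP11 after the yeast processome protein, at 15.7 and 18.9 FPKM against 22.8 and 21.7. Of 18 further 60S factors 17 were tested and all 17 lay above 0, with a median of 0.30, none called and 9 with an unadjusted p under 0.05. AT2G44860 stood at 77.8 and 87.4 FPKM against 118 and 133 (log2 0.60, SE 0.14, limma adjusted p = 0.102), and AT5G06360 at 79.6 and 93.4 FPKM against 116 and 127. In neither locus did the groups overlap, with hd2b hd2c higher as in 24.2% of all tested loci.

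Exosome and RNA decay genes outside the 48 were mixed. Of 16 tested, 11 lay above 0 and 5 below, with a median of 0.10 and none called. In limma 5 had an unadjusted p under 0.05, all higher, where 9.22% of all tested loci were higher at that p. RRP4 and RRP41 encode subunits of the exosome core. RRP4 stood at 14.4 and 15.01 FPKM (wild type) against 19.9 and 22.4 FPKM (hd2b hd2c) (log2 0.49, SE 0.12, limma adjusted p = 0.116), and RRP41 at 16.5 and 17.6 FPKM against 24.9 and 22.1 (log2 0.44, SE 0.12, limma adjusted p = 0.139). The snoRNP core and nucleolin genes had the highest median of the pathway lists: 11 of 11 lay above 0 with a median of 0.64, and in all 11 both hd2b hd2c libraries lay above both wild-type libraries, as in 24.2% of all tested loci. Of these FIB2 (fibrillarin, the methyltransferase of box C/D snoRNPs), NOP10 (of box H/ACA snoRNPs) and NUC-L2 (nucleolin) were called higher. Their adjusted p was 0.0455, 0.0464 and 0.0481 in limma, where 0.608% of all tested loci were called higher. FIB2 stood at 47.1 and 60.3 FPKM (wild type) against 92.5 and 108 FPKM (hd2b hd2c) (log2 0.89). NOP10 stood at 110 and 125 FPKM against 202 and 202 (log2 0.78). NUC-L2 stood at 1.17 and 1.496 FPKM against 3.85 and 3.19 (log2 0.95), with both wild-type values near the filter of 1 FPKM. All 3 adjusted p lay just under 0.05, and whether these 3 genes passed under the alternatives is not reported here. No test of the difference between the snoRNP core and nucleolin genes and the assembly factors was made.

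**Figure D5:**
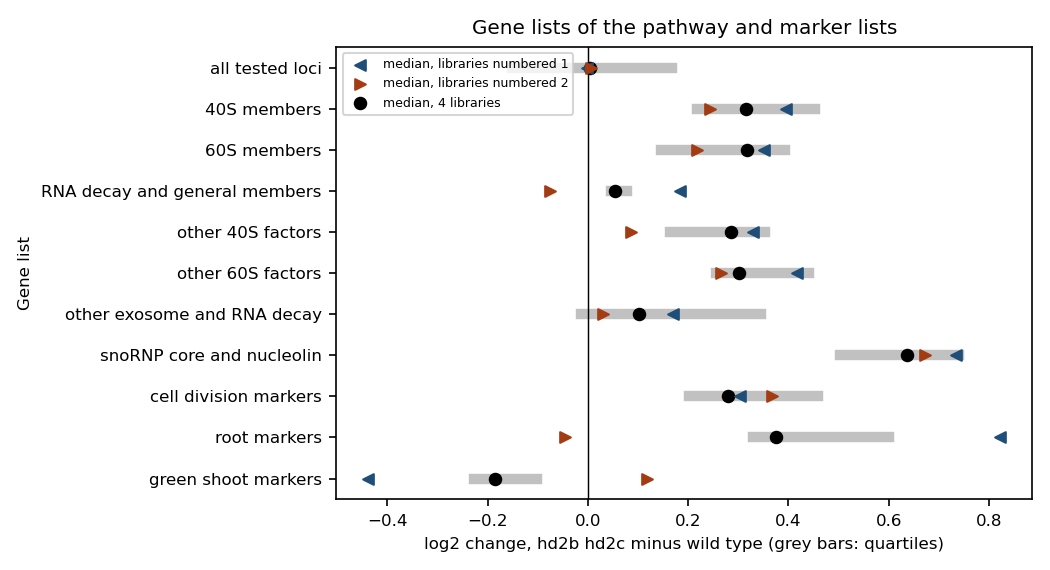
Median log2 change, hd2b hd2c minus wild type (x), of gene lists (y): black circles for all 4 libraries, triangles for libraries of the same number, grey bars for quartiles over genes. The 40S and 60S genes have medians of 0.32, the snoRNP core and nucleolin genes 0.64, and the root markers 0.82 between libraries numbered 1 and −0.05 between those numbered 2.

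Summed levels of markers of cell division, organs and dry seed differed between libraries, and their part in the changes above was not tested. The 13 cell division markers were each above 0 (median 0.28), and their FPKM summed to 262 and 283 in wild type and 323 and 384 in hd2b hd2c. The 9 root markers were each above 0 (median 0.38), with sums of 45.7 and 70.1 FPKM in wild type against 104 and 66.5 FPKM. The first wild-type library was the lowest in 11 of 13 division markers and in 9 of 9 root markers, against 32.3% of all tested loci. Between libraries numbered 1 all 9 root markers lay above 0 (median 0.82), and between those numbered 2, 4 of 9 did (median −0.05). Of the 12 green shoot markers 9 lay below 0, with sums of 63561 and 59334 FPKM in wild type and 47775 and 65002 FPKM in hd2b hd2c. The 9 dry seed markers all lay above 0, with sums of 4.89 and 27.0 FPKM against 173 and 343 FPKM. Limma called 3 of them higher, all albumin genes, where 0.608% of all tested loci were called higher. The 4 albumin genes were listed at 0 in the first wild-type library and under 1 FPKM in the second. They passed the filter only through the hd2b hd2c libraries, so the 3 calls are not taken as a result. In seedling RNA, more cells of a kind and more RNA per cell cannot be told apart.

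Overlapping neighbours limit some single values. In the reference, 15 of the 48 genes overlap the span of another gene, by 6 to 627 bp, and the use of strand in counting is not given in the sources used here. RH36 shares 627 of its 2938 bp with AT1G16270, and SWA1 shares 112 of its 1812 bp with AT2G47980 and 556 bp with a long noncoding RNA locus. AT2G47980 stood at 17.4 FPKM in wild type and 17.0 FPKM in hd2b hd2c. PWP2 shares 61 of its 3532 bp with AT1G15430, which stood at 7.34 and 11.04 FPKM. How much the overlap adds to each value was not tested.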

How the data were processed

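Seedling RNA was isolated with Trizol and built into libraries by the TruSeq kit, as the labels' protocols state. The authors deposited FPKM per locus for the 4 libraries, per the file headers. The submitters' processing notes list TAIR10, TopHat, Bowtie2 and bedtools without saying what each did. Not given in the sources used here are the program behind FPKM, its gene models and its strand setting. The deposited FPKM table holds no counts, so the depth is unknown and counting intervals cannot be made. Low values of the libraries numbered 2 kept fixed steps: among 3370 loci under 1 FPKM, 54.9% had a ratio between both libraries that matched 1.045 times a fraction of small whole numbers to 0.2%. The other 5 pairings of libraries gave 2.11% to 2.73%.

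Columns were matched to libraries by genotype abbreviation and number. Loci with at least 1 FPKM in 2 of the 4 libraries were tested, 19917 of 33278. The test was limma 3.58.1 (R 4.3.3) on log2(FPKM + 1) with trend and robust moderation and genotype as the only term. It is two-sided, with Benjamini-Hochberg adjustment over all tested loci and a threshold of 0.05. Log2 changes are hd2b hd2c minus wild type and understate the change of weakly expressed genes. Folds are ratios of mean FPKM. The fit was also run on simulated data, but the outcome is not reported here and no result rests on it.

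Names and gene spans were taken from RefSeq (TAIR10.1), where 32820 loci matched. Since the authors' build has another name, coordinates are left out. The members and lists were chosen with earlier results of these data known. Any of the 48 may be named. Described in full by rule were, in each step of the pathway, the 3 genes of smallest p and the 2 of smallest change, then copies and any gene below 0, and of other pathway genes those called and the 2 of smallest p per list. A planned comparison of promoter motifs and protein copies was not run. The alternatives were other scalings, filters and pseudocounts, limma without trend or robust moderation, removal of the trend on gene span, a block on the library number, and each library left out in turn.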

Additional observations from a re-analysis of the deposited data

How the results depend on the processing

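The 47 tested genes kept a median log2 change above 0 under every alternative run, between 0.20 without the first wild-type library and 0.38 without the second, and the medians of the 40S and 60S groups stayed above 0 as well. No gene was called higher with quantile normalization, no filter on low values, a filter of 5 FPKM, pseudocounts of 0.1 or 0.5, limma without trend or robust moderation, or removal of the trend on gene span, and none was called lower under any alternative. Columns scaled to the same sum called 3 genes higher (320 and 274 loci higher and lower over the table), and a rescaling that left out rRNA loci and AT2G01021 also 3 (286 and 246 loci). With no filter on low values 19 and 20 loci were called, without trend or robust moderation 69 and 66, and after removal of the trend on gene span 62 higher. Leaving out a library called 0 to 2 genes higher (147 to 364 loci higher and 115 to 155 lower over the table). Those with 2 and 1 calls were the fits without the second wild-type and without the first hd2b hd2c library. A fit without a library takes its spread from the other genotype, so such calls show dependence on a library.

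The numbers in the titles are not stated to mark a shared batch or plant. Deviations of same-numbered libraries from their group means had a correlation of 0.17 over 19917 loci. The fixed steps in low values were shared by the libraries numbered 2 (54.9% of 3370 loci) and not by those of other pairings. Their bearing on the differences between libraries was not tested. With a replicate block 5 genes were called higher (SWA1, IMP4, AT5G22100, AT1G52930 and eIF6A), and 260 and 172 loci over the table. A block combined with removal of the span trend called none of the 47.

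Signs turned only in genes with small changes, none of them called. PRH75 was −0.027 with quantile normalization, −0.0066 with columns scaled to the same sum and −0.0047 with the rescaling that left out rRNA loci, while AT1G06720 was −0.024 and −0.022 under those scalings. MDN1 and XRN2 were 0.33 and 0.11 after the span trend was removed, with or without the block. Over the fits that left out a library, the log2 changes ran from −0.14 to 0.19 in AT1G06720, −0.042 to 0.21 in AT2G40430, −0.033 to 0.18 in NUG2, −0.023 to 0.13 in MTR4, −0.066 to 0.16 in PRH75, −0.039 to 0.20 in RRP5, −0.0037 to 0.17 in REIL1, −0.35 to 0.16 in MDN1 and −0.28 to 0.084 in XRN2. The cause of these differences was not tested. Depth could not be judged, and 2 libraries per genotype limit every comparison.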
